A study of Mus musculus with 8 samples.

Results

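Lymphoid priming genes were examined in RNA-Seq of Zeb1-/- HSPCs that had been sorted by surface EpCAM. The set was given by name and comprised 10 of the 54532 genes of the count table, namely Flt3, Il7r, Dntt, Rag1, Rag2, Cd27, Notch1, Ikzf1, Satb1 and Ly6d. Both fractions were LSK cells (Lin- SCA-1+ C-KIT+), the bone marrow gate that holds hematopoietic stem cells and multipotent progenitors, and both were Zeb1-/-. All mice were C57BL/6 Zeb1 fl/fl;Mx1-Cre animals of 8 to 12 weeks, given pIpC, which switches on the interferon-inducible Mx1 promoter and thereby Cre, and the cells were taken 14 days after the last dose. Mx1-Cre is active in non-hematopoietic cells as well, pIpC is itself an interferon stimulus that both fractions received, and no Zeb1-sufficient library was part of the comparison. Each fraction had 4 libraries, EpCAM+ replicates 1 to 4 and EpCAM- replicates 1 to 4, with 15225714 to 17073546 counts assigned to genes in EpCAM+ and 14114491 to 15929923 in EpCAM-.

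Lymphoid priming is the low-level switching on of lymphoid genes in multipotent progenitors before any lineage is fixed. Flt3 marks the progenitors that have lost long-term self-renewal and gained lymphoid potential, and transcription factors such as Ikaros (Ikzf1) and SATB1 act at that step. Dntt and the recombination-activating genes Rag1 and Rag2 follow, and Il7r and Ly6d mark common lymphoid progenitors and, among these, the cells turning to the B cell fate, while NOTCH1 directs the T cell fate. Zeb1 encodes a zinc finger and homeodomain repressor that binds E-box sequences, which E proteins, the activators of many lymphoid genes, also bind.

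The genes of the sort were checked at the outset. Epcam measured 187 ± 32.7 CPM (counts scaled to the TMM-adjusted size of each library, mean ± SD, n = 4) in EpCAM+ and 3.86 ± 3.61 CPM in EpCAM-, and no library of either fraction reached the range of the other. Zeb1 RNA was still counted, at 19.5 ± 3.75 CPM in EpCAM+ and 11.9 ± 2.14 CPM in EpCAM- (log2 fold change 0.72 ± 0.17 SE, adjusted p = 0.00798). The table holds one value a gene, so reads from the deleted and the remaining exons of Zeb1 could not be separated. Kit measured 285 and 208 CPM (log2 fold change 0.45, adjusted p = 0.0277) and Ly6a, which encodes SCA-1, 201 and 41.3 CPM (2.28, adjusted p = 0.00658), so the genes of the gate were transcribed in both fractions. Fold changes were taken as EpCAM+ over EpCAM- on the log2 scale throughout, from edgeR's quasi-likelihood test, and a gene was called at a Benjamini-Hochberg adjusted p below 0.05 over the 13560 genes tested. In such bulk samples, fewer cells that express a gene and less RNA per cell cannot be told apart.

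Of the 10 lymphoid priming genes, 8 passed the filter on low counts and were tested, and Il7r and Rag1 did not pass it. Flt3 and Ly6d were called higher in EpCAM+, which is 2 of 8 where 21.8% of all tested genes were called higher. Satb1 was called lower, 1 of 8 where 20.8% of all tested genes were called lower. The other 5 (Rag2, Cd27, Dntt, Notch1 and Ikzf1) were not called. Together 3 of 8 were called in either direction against 42.6% of all tested genes, and in 2 of 8 (Flt3 and Ly6d) all libraries of one fraction stood above all of the other, against 40.1% of all tested genes. These shares are near or below the background of a comparison in which a large part of the transcriptome differed. The median log2 fold change of the 8 genes was 0.01, beside 0.02 over all tested genes. The 3 called genes did not share a direction. These calls come from a fit that left the replicate numbers out. With the replicate number as a block, Cd27 was called higher and Rag2 lower as well. The background rose too: of all 13560 tested genes, 3465 were called higher and 3353 lower with the block, 6818 in all. Without the block these were 2961 and 2818. Each gene is described in turn.

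**Figure D1:**
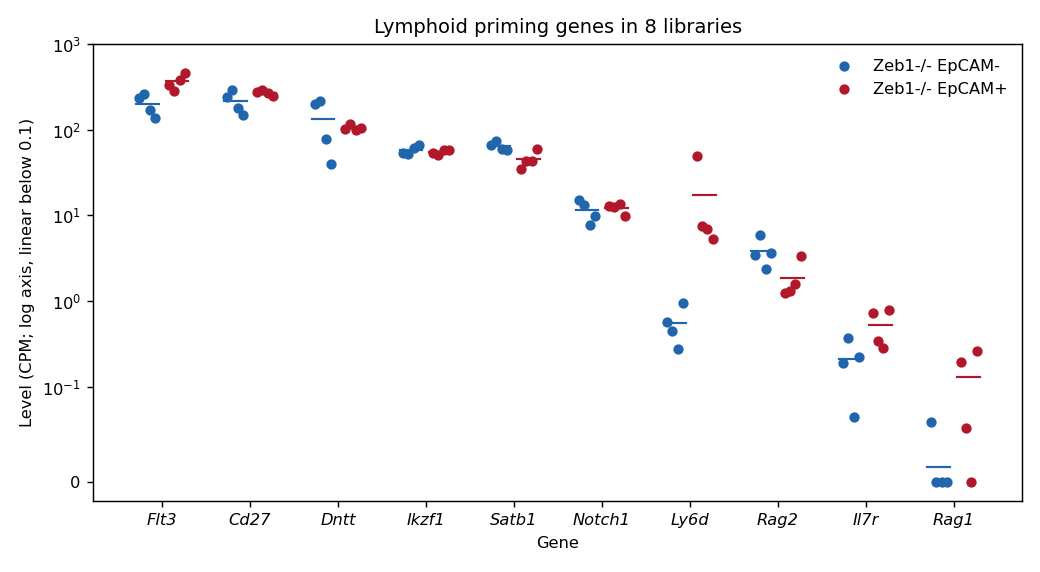
Level of each lymphoid priming gene in the 8 libraries, in CPM on a log axis that is linear below 0.1, with EpCAM- in blue, EpCAM+ in red, 1 point a library in the order of the replicate numbers and a line at each mean. The red points lie wholly above the blue ones for Flt3 and Ly6d, the blue points of Dntt spread from 39.3 to 215 CPM while its red ones lie between 99.98 and 117 CPM, and Il7r and Rag1 have the lowest points.

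Promoter bases are shown first. Flt3 was chosen because it was called higher in EpCAM+ at a high level. The Rag1 window and 1 of the windows of Satb1 were chosen because they held the E-box that ZEB1 binds. Printed are the 250 bases before an annotated start site, from RefSeq on GRCm38.p6, 5′ to 3′ on the strand of the gene. Capitals mark CAGGTG or its reverse complement CACCTG, the motif searched on both strands. The windows are Flt3 at chr5:147400490-147400739 (minus strand), Satb1 at chr17:51826589-51826838 (minus strand, before an inner start site) and Rag1 at chr2:101649533-101649782 (minus strand).
Flt3: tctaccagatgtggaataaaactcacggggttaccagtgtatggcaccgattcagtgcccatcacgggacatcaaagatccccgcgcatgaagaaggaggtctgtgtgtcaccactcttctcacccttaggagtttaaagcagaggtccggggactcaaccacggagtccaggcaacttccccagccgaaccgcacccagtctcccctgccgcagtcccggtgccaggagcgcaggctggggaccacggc
Satb1: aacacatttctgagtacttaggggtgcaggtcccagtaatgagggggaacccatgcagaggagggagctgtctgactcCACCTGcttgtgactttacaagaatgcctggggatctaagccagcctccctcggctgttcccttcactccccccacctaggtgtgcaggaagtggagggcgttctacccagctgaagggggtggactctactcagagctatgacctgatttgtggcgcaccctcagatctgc
Rag1: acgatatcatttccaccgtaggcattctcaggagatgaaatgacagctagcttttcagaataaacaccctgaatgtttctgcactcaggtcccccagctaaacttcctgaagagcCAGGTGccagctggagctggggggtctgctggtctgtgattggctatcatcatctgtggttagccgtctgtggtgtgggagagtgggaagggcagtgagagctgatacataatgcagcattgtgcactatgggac

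The first base of the match lay at -172 from the start site in the Satb1 window and at -135 in the Rag1 window. Over 9 of the 10 genes, RefSeq gave 14 such windows, and 2 of the 14 held the motif. The other Satb1 windows held no match, among them the one at the 5′ end of the gene (chr17:51833291-51833540). Among all 32851 windows of the same length 5657 held it, or 17.2%. A match is a run of letters and was not tested as a binding site, and binding at these windows was not measured here.

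The cytokine receptors came first. Flt3 encodes the receptor tyrosine kinase for FLT3 ligand and lies at chr5:147330741-147400489 on the minus strand. It measured 335, 286, 378 and 464 CPM in EpCAM+ replicates 1 to 4 and 233, 259, 167 and 136 CPM in EpCAM- replicates 1 to 4. Every EpCAM+ library exceeded every EpCAM- library, though EpCAM+ replicate 2 and EpCAM- replicate 2 lay close together. The means were 366 ± 75.5 and 199 ± 57.0 CPM, a 1.84-fold difference (log2 fold change 0.88 ± 0.21 SE, adjusted p = 0.00694). Within the pairs of libraries that carried the same replicate number, the log2 differences were 0.52, 0.14, 1.17 and 1.76.

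Flt3 is also expressed by conventional dendritic cells and is in the list of their markers used here, and genes of that list moved with the fractions. The summed level of its 13 genes was 16612, 1533, 4626 and 17246 CPM in EpCAM+ replicates 1 to 4 and 349 to 661 CPM in EpCAM-. Of 12 tested genes 11, Flt3 itself among them, were higher in EpCAM+ and none lower (21.8% and 20.8% of all tested genes). The sums include Flt3 too, at 286 to 464 CPM in EpCAM+ and 136 to 259 CPM in EpCAM-. The tested gene not called was Zbtb46, at 8.54 CPM in EpCAM+ against 10.4 CPM in EpCAM- (log2 fold change -0.29, adjusted p = 0.727). No gene of the list was at 0 in all libraries. The 3 genes with the highest CPM all serve antigen presentation on MHC class II: Cd74, the invariant chain, measured 4525 against 64.2 CPM, H2-Ab1 2622 against 114 CPM and H2-Aa 1468 against 34.7 CPM. Without EpCAM+ replicates 1 and 4, the libraries with the highest sums, Flt3 differed by 0.73 on the log2 scale (adjusted p = 0.0466), and EpCAM+ replicates 2 and 3 alone stood at 286 and 378 CPM. The sums of EpCAM+ replicates 2 and 3 were still above those of EpCAM-, and the part of these cells in the Flt3 difference was not tested.

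Il7r encodes the alpha chain of the IL-7 receptor, which marks common lymphoid progenitors, and lies at chr15:9505788-9530176 on the minus strand. Its raw counts were 11, 6, 5 and 12 in EpCAM+ replicates 1 to 4 and 3, 5, 1 and 3 in EpCAM- replicates 1 to 4. The fractions overlapped at 5 counts. The means were 0.529 and 0.212 CPM, where 3 counts in a library correspond to 0.168 to 0.222 CPM. A two-sided exact permutation test of the 4 values against 4 gave p = 0.0857, where 0.0286 is the smallest p this design allows, and with no filter beyond 1 count in any library the fit gave 1.28 (adjusted p = 0.169). Neither passed the threshold at these counts.

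The wider IL-7 and FLT3 receptor signaling list holds receptor chains, ligands and downstream genes. Of its 24 genes, all tested, 12 were higher in EpCAM+ (21.8% of all tested genes were) and none was lower, and the median log2 fold change was 0.41 beside 0.02 over all genes. Socs2, a feedback inhibitor of STAT5 signaling, rose from 2.56 ± 1.01 CPM in EpCAM- to 12.6 ± 3.98 CPM in EpCAM+ (log2 fold change 2.28, adjusted p = 0.000534). Cish, a second STAT5 target of that kind, stood at 4.32 and 12.2 CPM (1.49, adjusted p = 0.000782). Il2rg, the common gamma chain that pairs with IL-7 receptor alpha, measured 103 CPM in EpCAM- and 161 CPM in EpCAM+ (0.65, adjusted p = 0.000707), and Crlf2, the partner chain in the TSLP receptor, 36.8 and 51.5 CPM (0.48, adjusted p = 0.00109). The chain shared with other cytokine receptors was thus abundant in both fractions while Il7r stayed at a few counts a library.

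The genes that act on antigen receptor loci did not follow Flt3. Dntt encodes terminal deoxynucleotidyl transferase, which adds bases at V(D)J joints, and lies at chr19:41029275-41059523 on the plus strand. It measured 101, 117, 99.98 and 105 CPM in EpCAM+ replicates 1 to 4 and 198, 215, 76.9 and 39.3 CPM in EpCAM- replicates 1 to 4. EpCAM- replicates 1 and 2 stood above the EpCAM+ range and replicates 3 and 4 below it. The fitted difference was -0.33 ± 0.42 SE (adjusted p = 0.557) on means of 106 ± 8.07 and 132 ± 87.4 CPM, and the pair differences of -0.97, -0.87, 0.38 and 1.40 had no common sign. The contrast lay in the spread: the coefficient of variation was 7.63% in EpCAM+ and 66.0% in EpCAM-, higher in EpCAM- than that of 96.3% of tested genes.

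Rag2 encodes the partner subunit of the V(D)J recombinase and lies at chr2:101624718-101632529 on the plus strand. Its raw counts were 19, 23, 28 and 52 in EpCAM+ replicates 1 to 4 and 55, 79, 35 and 49 in EpCAM- replicates 1 to 4. EpCAM+ replicate 4 overlapped the EpCAM- range, and the other EpCAM+ libraries lay below all of it. The means were 1.87 ± 1.01 and 3.82 ± 1.45 CPM (log2 fold change -1.03 ± 0.38 SE, adjusted p = 0.0515), which did not pass the threshold. Pair differences were -1.17, -1.81, -0.48 and -0.08, lower in EpCAM+ in 4 of 4 pairs, and the fit with the replicate number as a block gave -1.06 (adjusted p = 0.0357). Without EpCAM+ replicate 4 the difference was -1.47 (adjusted p = 0.00949), and without EpCAM- replicate 3 it was -1.21 (adjusted p = 0.0410), so leaving out either library changed the call.

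Rag1 encodes the catalytic subunit and lies at chr2:101638282-101649501 on the minus strand, next to Rag2. Its raw counts were 3, 1, 0 and 4 in EpCAM+ and 1, 0, 0 and 0 in EpCAM-, in the order of the replicates. The totals were 8 and 1 counts over the 4 libraries of a fraction (two-sided exact permutation test of CPM, p = 0.257). Rag1 was thus at or near the counting floor in every library of both fractions, and Rag2 counts were not matched by Rag1 counts. B230118H07Rik spans the locus, sharing 208 of the 3424 exonic bases of Rag2 (6.08%, opposite strand) and 80 exonic bases of Rag1. It measured 105 and 94.5 CPM and was not called (adjusted p = 0.399). The library kit did not keep strand, so reads on the bases shared with Rag2 could not be told apart, and their part in the Rag2 counts was not tested.

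The list of V(D)J recombination partners, most of them DNA repair genes, gave few calls. Of 13 genes tested, 1 was higher and 1 lower (21.8% and 20.8% of all tested genes), with a median log2 fold change of 0.04. The higher one was Xrcc4, the ligase IV cofactor, at 21.3 against 13.7 CPM (0.63, adjusted p = 0.00461), and the lower one was Xrcc6, which encodes Ku70, at 148 against 179 CPM (-0.28, adjusted p = 0.00878). Xrcc5 (Ku80), Prkdc (DNA-PKcs) and Lig4 had log2 fold changes of 0.10, 0.05 and 0.04 and were not called.

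**Figure D2:**
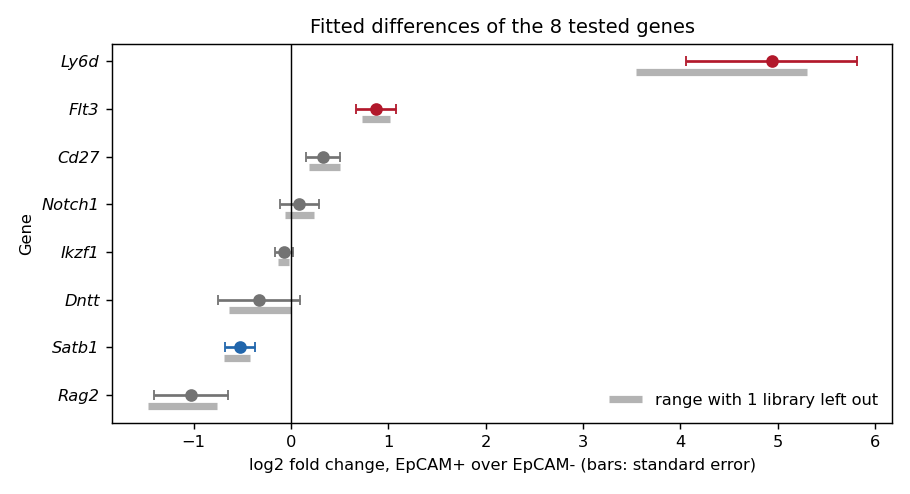
Log2 fold change of the 8 tested lymphoid priming genes, EpCAM+ over EpCAM-, with the standard error as a bar and, in grey below each, the range of the estimates when 1 library is left out. Red marks genes called higher, blue the gene called lower and dark grey those not called; Ly6d stands at 4.94, Flt3 at 0.88 and Satb1 at -0.52, and the grey range of Notch1 crosses 0.

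Cd27, a TNF receptor family member found on lymphoid-primed progenitors and on stem cells, lies at chr6:125232622-125237010 on the minus strand. It measured 278, 287, 265 and 249 CPM in EpCAM+ replicates 1 to 4 and 241, 291, 178 and 148 CPM in EpCAM- replicates 1 to 4. The EpCAM+ libraries lay close together, and EpCAM- replicate 2 exceeded all of them. The means were 270 ± 16.3 and 215 ± 63.9 CPM (log2 fold change 0.33 ± 0.18 SE, adjusted p = 0.155), with coefficients of variation of 6.05% and 29.8%. With the replicate block the difference was 0.38 and passed the threshold (adjusted p = 0.0274), as it did without EpCAM- replicate 2 (0.50, adjusted p = 0.0260). The ligand gene Cd70 had at most 1 count in any library. Of 5 tested genes of CD27 signaling, 2 were higher and none lower (21.8% and 20.8% of all tested genes), with a list median of 0.04. The higher ones were Map3k14, the NIK kinase, at 7.39 against 3.24 CPM (1.19, adjusted p = 0.00333) and the adaptor Traf5 at 8.39 against 4.62 CPM (0.86, adjusted p = 0.00882).

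Notch1, the receptor that commits progenitors to the T cell lineage, lies at chr2:26457903-26516663 on the minus strand. It measured 12.7, 12.4, 13.7 and 9.86 CPM in EpCAM+ replicates 1 to 4 and 15.0, 13.1, 7.78 and 9.93 CPM in EpCAM- replicates 1 to 4. The fractions overlapped over most of their ranges. The difference was 0.09 ± 0.20 SE (adjusted p = 0.750), and it turned to -0.07 without EpCAM- replicate 3. The transcript 0610009E02Rik on the opposite strand shares 1068 of its 14232 exonic bases (7.50%). Of 28 tested genes of the Notch pathway, 7 passed the test as higher and 5 as lower, and the list median was 0.22. These counts are near the 21.8% and 20.8% of all tested genes called higher and lower.

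The named genes of the pathway lay on either side. Notch2, the paralog that multipotent cells also carry, was higher, at 35.1 against 22.8 CPM (0.62, adjusted p = 0.0194), although its fractions overlapped. Mfng, a glycosyltransferase that modifies Notch receptors, measured 145 against 81.3 CPM (0.84, adjusted p = 0.000441), and Dtx3, of the Deltex family, 60.9 against 41.6 CPM (0.55, adjusted p = 0.000748). Dtx4, of the same family, was lower at 3.23 against 12.8 CPM (-1.99, adjusted p = 0.00136), as was the receptor-cleaving protease Adam17 at 49.2 against 67.2 CPM (-0.45, adjusted p = 0.00175). Rbpj, the DNA-binding partner of cleaved Notch, and Hes1, a classical target, had log2 fold changes of 0.42 (adjusted p = 0.0535) and 0.54 (adjusted p = 0.181) and were not called.

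Of the transcription factors in the set, Satb1 was called lower. SATB1 organises chromatin and supports lymphoid differentiation of stem cells, and its gene lies at chr17:51736187-51833290 on the minus strand. It measured 34.8, 42.6, 43.2 and 59.7 CPM in EpCAM+ replicates 1 to 4 and 66.9, 74.7, 60.2 and 57.4 CPM in EpCAM- replicates 1 to 4. EpCAM+ replicate 4 exceeded EpCAM- replicate 4, and the other EpCAM+ libraries lay below the whole EpCAM- range. The means were 45.1 ± 10.5 and 64.8 ± 7.68 CPM (log2 fold change -0.52 ± 0.15 SE, adjusted p = 0.0188). Pair differences of -0.93, -0.80, -0.47 and 0.05 put Satb1 lower in 3 of 4 pairs, and the estimates with 1 library left out ran from -0.69 to -0.43 with an adjusted p of at most 0.0496.

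Ikzf1, which encodes the zinc finger factor Ikaros, differed little. It lies at chr11:11685003-11772926 on the plus strand and measured 53.9, 50.6, 58.5 and 57.6 CPM in EpCAM+ replicates 1 to 4 and 53.1, 52.2, 61.4 and 65.5 CPM in EpCAM- replicates 1 to 4. The fractions overlapped, and the coefficients of variation were 6.59% and 11.1%. Its difference of -0.07 ± 0.09 SE (adjusted p = 0.544) changed sign with other scalings, to 0.01 with upper-quartile scaling and with library totals. Around it, 14 genes of the Ikaros family and of the NuRD complex, the chromatin remodeler that Ikaros binds, were tested. Of these, 1 was higher and 6 lower (21.8% and 20.8% of all tested genes), with a median of -0.24. The higher one was the paralog Ikzf2 (Helios) at 33.4 against 22.2 CPM (0.59, adjusted p = 0.0127). Mbd2 (-0.74, adjusted p = 0.00151), Hdac2 (-0.37, adjusted p = 0.00187), Gatad2a (-0.35, adjusted p = 0.00420) and Mbd3 (-0.30, adjusted p = 0.00550), all NuRD subunits, were lower. Ikzf3 (Aiolos), a later B cell member, was not tested, with 6 to 45 counts in EpCAM+ and at most 1 in EpCAM-.

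In the wider list of lymphoid transcription factors, 11 of 27 tested genes were higher and 3 lower (21.8% and 20.8% of all tested genes). The list median was 0.23. Id2, an inhibitor of E proteins that innate lymphoid and dendritic cells also use, measured 167 ± 131 CPM against 13.4 ± 6.80 CPM (3.63, adjusted p = 0.00178), and the related inhibitor Id3 2.71 against 0.895 CPM (1.58, adjusted p = 0.00141). Tcf3, which encodes the E proteins E12 and E47, moved the other way, at 128 against 182 CPM (-0.51, adjusted p = 0.00650). Gata3 was higher at 22.1 against 6.31 CPM (1.80, adjusted p = 0.000137), as was Ets1 at 10.8 against 5.02 CPM (1.11, adjusted p = 0.000982). The factors that fix the B cell fate were at the floor: Ebf1 had at most 3 counts in any library and Pax5 had 0 in all 8.

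Ly6d had the largest fold among the lymphoid priming genes. It encodes a GPI-anchored surface protein of the Ly6 family and lies at chr15:74762056-74763620 on the minus strand. Its raw counts were 758, 133, 124 and 81 in EpCAM+ replicates 1 to 4 and 9, 6, 4 and 13 in EpCAM- replicates 1 to 4. All EpCAM+ libraries exceeded all EpCAM- libraries, and EpCAM+ replicate 1 stood well above the rest. In CPM these were 49.6, 7.54, 6.93 and 5.25 in EpCAM+ and 0.562, 0.444, 0.273 and 0.956 in EpCAM-, with means of 17.3 ± 21.5 and 0.559 ± 0.290. The log2 fold change was 4.94 ± 0.88 SE (adjusted p = 0.00175), and without EpCAM+ replicate 1 it was 3.54 (adjusted p = 0.000435).

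Genes of antibody-secreting cells were also higher in EpCAM+ and highest in EpCAM+ replicate 1, though their order in the other libraries was not that of Ly6d. The summed level of 10 plasma cell markers was 4084, 552, 781 and 501 CPM in EpCAM+ replicates 1 to 4 and 248 to 353 CPM in EpCAM-. Of these markers, 4 of 7 tested were higher and none lower (21.8% and 20.8% of all tested genes). Jchain, the joining chain of secreted antibodies, made up 3525 of the 4084 CPM in EpCAM+ replicate 1. It had 53916 counts in EpCAM+ replicate 1, 3069 to 7671 in the other EpCAM+ libraries and at most 4 in EpCAM-. Xbp1, a factor of secretory cells, measured 238 and 225 CPM and was not called, and Tnfrsf13b measured 86.6 and 64.2 CPM (0.43, adjusted p = 0.00618). Mzb1, a chaperone of antibody assembly, was among the 2 genes nearest to Ly6d in pattern (root mean square difference of centred log2 CPM 0.48 over 8 libraries), after the immunoglobulin segment Ighv9-3 (0.45). The Jchain counts of EpCAM+ replicates 2 to 4 remained above those of EpCAM-, so the estimate without replicate 1 does not remove this signal, and the part of such cells in the Ly6d level was not tested.

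B cells and plasmacytoid dendritic cells are other cell types in which Ly6d is known. The B cell list summed to 239, 200, 181 and 195 CPM in EpCAM+ and 129, 160, 103 and 86.8 CPM in EpCAM-. In it 3 of 9 tested genes were higher and none lower (21.8% and 20.8% of all tested genes), and Pax5 was at 0. Cd72 (104 against 54.2 CPM) and Cd79a were higher, and Cd79b (69.2 against 56.3 CPM) was not called. Cd79a ranged from 1.98 to 36.35 CPM in EpCAM+ and from 0.614 to 2.15 CPM in EpCAM-, so its fractions overlapped. The third B cell gene called higher was Ms4a1, which encodes CD20 and is named here after its values were seen. It had 196, 21, 41 and 112 counts in EpCAM+ replicates 1 to 4 and at most 2 in any EpCAM- library (adjusted p = 0.000995). The plasmacytoid dendritic cell list, which contains Ly6d, summed to 270 to 327 CPM in EpCAM+ and 217 to 268 CPM in EpCAM-. In it 5 of 8 tested genes, Ly6d itself among them, were higher and 1 lower (21.8% and 20.8% of all tested genes), and Klk1 was at 0. The lower one was Cox6a2, at 1.14 against 6.14 CPM (-2.43, adjusted p = 0.00287). Of the genes of this list with the highest CPM, Bst2 and Smim5 were not called and Lair1 was higher (49.6 against 31.8 CPM). T cell markers summed to 72.1 to 100 CPM in EpCAM+ and 31.6 to 51.1 CPM in EpCAM-. Most of these sums was Lat alone (78.6 against 38.5 CPM). Only 4 of the 15 listed genes were tested, and Cd3e had at most 1 count in any library. The lineage cocktail of the sort included B220, CD3, CD4 and CD8, which are meant to remove B and T cells.

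**Figure D3:**
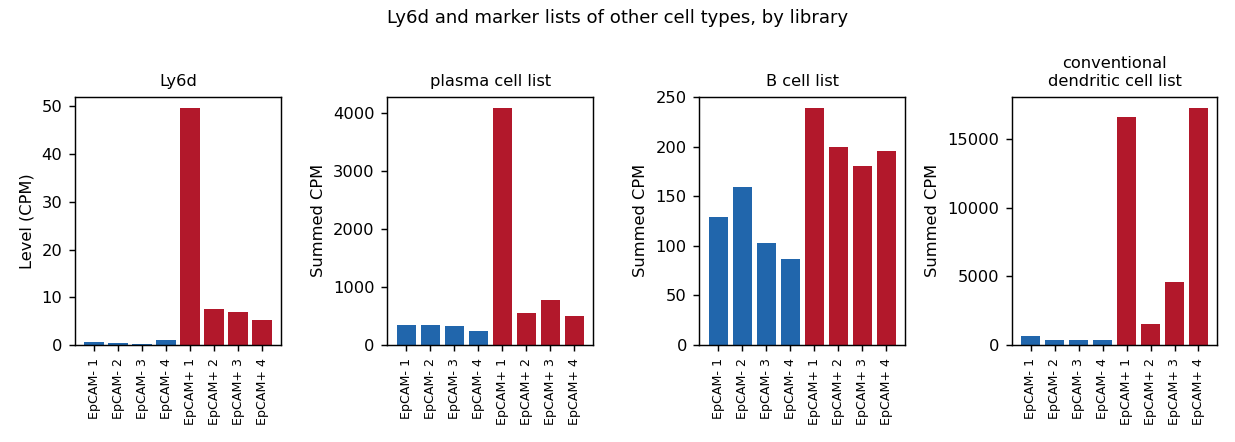
Level of Ly6d (CPM) and summed CPM of the plasma cell, B cell and conventional dendritic cell marker lists in each library, on linear axes from 0, with EpCAM- libraries in blue and EpCAM+ libraries in red. Ly6d and the plasma cell list are both highest in EpCAM+ replicate 1 (49.6 and 4084 CPM), and the conventional dendritic cell list is highest in EpCAM+ replicates 1 and 4 (16612 and 17246 CPM).

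Other Ly6 genes did not share the size of the Ly6d difference. Of 15 Ly6 family genes in the table, 4 were tested and 4 were at 0 in all 8 libraries. Ly6a and Ly6i were higher, Ly6i at 3.53 against 0.973 CPM (1.83, adjusted p = 0.0290) with overlapping fractions, while Ly6e, a broadly expressed member, measured 2339 and 2398 CPM (-0.04, adjusted p = 0.846). Ly6a was also a gene of the sort. Among early lymphoid surface and signaling genes, 11 of 19 tested were higher and 2 lower (21.8% and 20.8% of all tested genes). The list median was 0.87. Gimap6, a GTPase of lymphocytes, measured 269 against 86.7 CPM (1.63, adjusted p = 0.000211), the kinase gene Lck 55.4 against 21.9 CPM (1.34, adjusted p = 0.000257), the phosphatase gene Ptpn22 49.8 against 29.2 CPM (0.77, adjusted p = 0.000653), and the B lineage gene Fcrla 27.2 ± 22.9 against 0.362 ± 0.353 CPM (6.13, adjusted p = 0.000860).

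**Figure D4:**
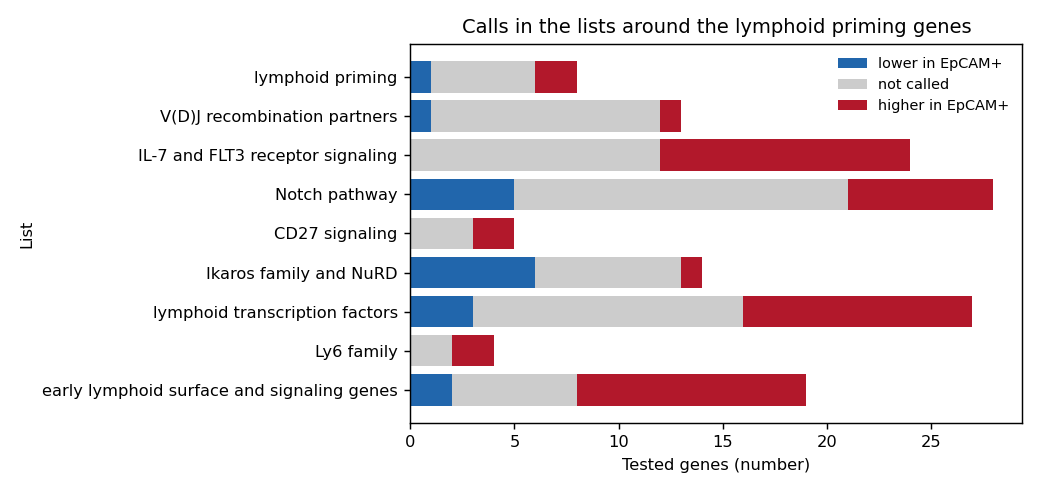
Number of tested genes called lower (blue), not called (grey) and called higher (red) in EpCAM+ for the lymphoid priming genes and the 8 lists around them. The IL-7 and FLT3 receptor signaling list has 12 higher and 0 lower of 24, the Ikaros and NuRD list 1 higher and 6 lower of 14, and the V(D)J partners 1 and 1 of 13. Over all tested genes 21.8% were called higher and 20.8% lower.

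The levels were then ordered per kilobase of gene length (CPM per kilobase), with the deposited gene lengths. In EpCAM+ the order was Cd27 (116), Flt3 (59.2), Dntt (49.7), Ly6d (23.3), Ikzf1 (9.55), Satb1 (2.37), Notch1 (0.855), Rag2 (0.546), Il7r (0.114) and Rag1 (0.0194). The ranges over libraries overlapped between Flt3 and Dntt, Dntt and Ly6d, Ly6d and Ikzf1, and Notch1 and Rag2, so those neighbours were not separated. In EpCAM- the order was Cd27 (92.2), Dntt (62.2), Flt3 (32.2), Ikzf1 (10.1), Satb1 (3.41), Rag2 (1.12), Notch1 (0.804), Ly6d (0.751), Il7r (0.0454) and Rag1 (0.00236), with Cd27 and Dntt, Dntt and Flt3, Rag2 and Notch1, and Notch1 and Ly6d not separated. With the authors' FPKM, which imply a length of 1519 bases for Notch1 in place of 14232, Notch1 stood above Rag2 in EpCAM- (mean FPKM 7.34 against 1.40), and in EpCAM+ Ikzf1 and Ly6d changed places (26.1 against 23.6). Cd27, Flt3 and Dntt thus led in both fractions and Il7r and Rag1 closed the order in both. Cd27 was above 95.7% of tested genes in EpCAM+ and Dntt above 89.5%, whereas Rag1 was above 0.0516%.

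In EpCAM-, replicates 1 and 2 both exceeded replicates 3 and 4 for Flt3, Dntt, Cd27, Notch1 and Satb1, Ikzf1 had the reverse order, and Rag2 and Ly6d had neither. Over all tested genes, 22.8% had replicates 1 and 2 above replicates 3 and 4 in EpCAM-, and 23% below. Such splits occurred in EpCAM+ too, with Cd27 and Ly6d above and Flt3, Rag2, Ikzf1 and Satb1 below. There the shares over all tested genes were 16.3% and 16.1%. The order in EpCAM- was noticed in the values of these genes, and both are given as a description only. The EpCAM- libraries differed in other lineages too. The summed level of 12 erythroid markers was 554, 516, 969 and 1237 CPM in EpCAM- replicates 1 to 4, beside 90.9 to 160 CPM in EpCAM+. Of these markers, 7 of 10 tested were lower in EpCAM+ and 1 higher (20.8% and 21.8% of all tested genes). The higher one was the globin gene Hbb-bt, at 10.2 CPM in EpCAM+ against 3.98 CPM in EpCAM- (adjusted p = 0.0146). Among the other globin genes, Hba-a1 was lower, at 7.02 against 29.7 CPM (adjusted p = 0.0085), and Hbb-bs and Hba-a2 were not called. Klf1 (298 CPM in EpCAM- against 16.2 CPM in EpCAM+), Gata1 (178 against 42.1 CPM) and Tfrc (98.5 against 18.6 CPM) had the highest CPM of the list, and the part of erythroid cells, which the TER119 antibody of the lineage cocktail is meant to remove once mature, in the Dntt, Flt3 and Cd27 spread was not tested.

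**Figure D5:**
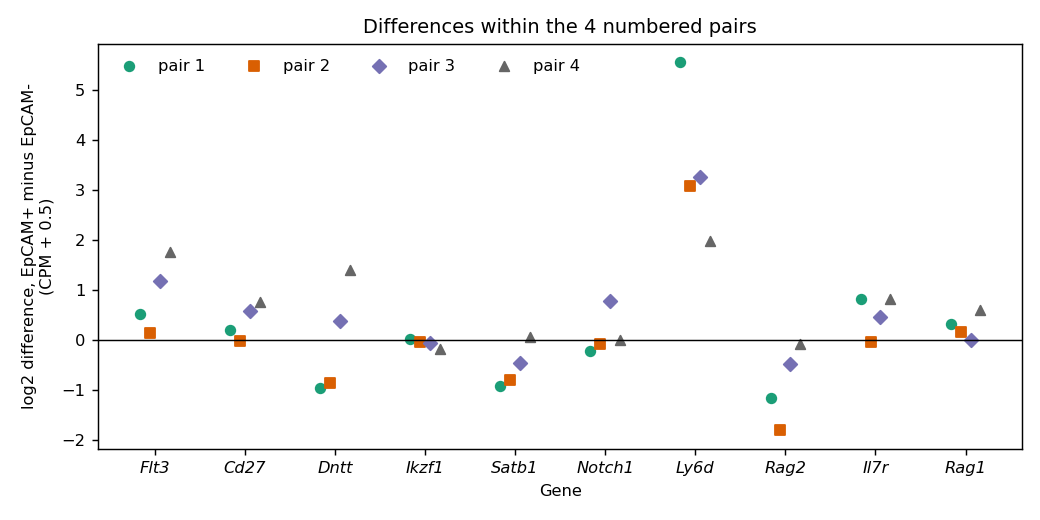
Difference in log2(CPM + 0.5) between the EpCAM+ and the EpCAM- library of the same replicate number, for each lymphoid priming gene and the 4 numbers. All 4 points lie above 0 for Flt3 and Ly6d and below 0 for Rag2, and those of Dntt run from -0.97 to 1.40.

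Stem cell markers and markers of mast cells and basophils moved with the fractions as well. Of 12 stem cell genes, 9 were higher in EpCAM+ and none lower, where 21.8% and 20.8% of all tested genes were. Their median was 1.46, with sums of 904 to 1215 CPM in EpCAM+ and 345 to 583 CPM in EpCAM-. Meis1, a homeobox factor of stem cells, measured 247 against 108 CPM, while Gata2, at 205 and 169 CPM, was not called. Mast cell and basophil markers summed to 72.9 to 98.2 CPM in EpCAM+ and 288 to 589 CPM in EpCAM-. Of these, 5 of 7 tested were lower in EpCAM+ (20.8% of all tested genes). Flt3, which long-term stem cells carry little of, was thus higher in the same fraction as these 9 stem cell genes, and the part of cell composition in either was not tested.

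The genes closest in pattern were found by the root mean square difference of centred log2 CPM over the 8 libraries. Nearest to Flt3 were Gpr132 and 0610010K14Rik (0.12 each), to Satb1 Bex6 (0.10) and Gm7488 (0.12), to Cd27 Ppcs (0.07) and Smpd2 (0.08), to Ikzf1 Atxn3 and Arl5a (0.04 each), and to Notch1 Tnfrsf22 and Usp44 (0.12 each). Dntt and Rag2 had no gene as close, with Wfdc17 at 0.26 and Gm43696 at 0.33 for Dntt, and Gm12870 at 0.25 and Drc7 at 0.27 for Rag2. No lymphoid priming gene was among the 2 nearest of another.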

How the data were processed

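RNA from 8 libraries (EpCAM+ and EpCAM- LSK cells, 4 each) was amplified with SMART-Seq v4 and made into libraries that do not keep strand. Per the submitters' notes, reads were aligned with STAR 2.6.1d to GRCm38.p6 and counted with featureCounts 1.5.0-p3; the annotation release and the treatment of multimapping reads were not given in the sources used here. The deposited values were raw counts per gene, used for every test, and FPKM by the authors, used only to check the order of levels. FPKM implied shorter gene lengths than the deposited length column (median ratio 0.389 over 8739 genes), so levels per kilobase depend on the length chosen. Further columns hold the submitters' test results, over all libraries and pair by pair, and were left aside.

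Genes were filtered by filterByExpr (minimum count 10), scaled by TMM and tested in R 4.3.3 with edgeR 4.0.16 (glmQLFit, glmQLFTest, no covariate). Limma 3.58.1 and DESeq2 1.42.0 were alternatives. CPM were computed with TMM-scaled library sizes. Untested genes received an exact two-sided permutation test, and pair differences used a pseudocount of 0.5 CPM. Counting floors cover counting error only. The fractions share replicate numbers, and same-numbered libraries deviated together (r across genes 0.205 to 0.356 in 4 pairs, -0.216 to 0.0396 in 12 others). Differences within these pairs are therefore given. The main fit left the numbers out, and the value with the replicate number as a block is given where it changed a call. The labels do not say that a number marks 1 mouse, and if libraries of a fraction were not separate animals, the p-values measure only the spread between these libraries. No 2 libraries were duplicates. GENCODE M21 gave positions and overlaps, and its Dntt model differs from the table's length.

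The genes, the lists and the rules were chosen with earlier results of these data known. Named were all lymphoid priming genes, the genes of the sort, up to 4 called genes with the smallest adjusted p and the listed partners in each list, up to 3 abundant genes in each marker list, and the 2 nearest genes of each member. B230118H07Rik, 0610009E02Rik, Cd3e, Ms4a1, Zbtb46, Cox6a2, the globin genes and the genes named as at 0 were added after their values were seen.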

Additional observations from a re-analysis of the deposited data

Results flagged for a closer look

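Within a fraction of 4 libraries, 20 groups were examined (10 genes in 2 fractions) for a library whose distance to the nearest other exceeded the share of the range that Dixon's test allows, and 3 were found. Chance gives about 1 in 20. Ly6d stood at 49.6 CPM in EpCAM+ replicate 1, beside 5.25 to 7.54 CPM in the other EpCAM+ libraries. Rag2 stood at 3.37 CPM in EpCAM+ replicate 4, beside 1.24 to 1.56 CPM in the others. Rag1 stood at 0.0624 CPM in EpCAM- replicate 1, which is 1 count where the other EpCAM- libraries had 0, a pattern that is always found by this criterion when 1 library has a read and the others have none.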

How the results depend on the processing

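Flt3 and Satb1 kept their direction and their call under all 18 alternatives and Ly6d under the 16 that gave it an adjusted p. Lymphoid priming genes called higher numbered 1 instead of 2 with DESeq2, which gave Ly6d no adjusted p, and 1 with 10 counts required in every library, which left Ly6d out. Those called lower numbered 2 instead of 1, Rag2 being added, with DESeq2, limma-trend, DESeq2 size factors, 10 counts in every library and the replicate block, and 2 without EpCAM+ replicates 1 and 4, an alternative chosen after seeing the data that also lowered the genes called from 5779 to 3675. Leaving out 1 library gave 1 to 2 called lower. With the replicate block, Cd27 was added to those called higher, which made 3. The block also raised the calls over all 13560 tested genes, to 3465 higher and 3353 lower, 6818 in all, from 2961 and 2818. Rag2 passed the threshold in 8 of 18 alternatives (adjusted p 0.00949 to 0.140). The median of the members was 0.09 with upper-quartile scaling and with library totals (0.0915 and 0.0903) and 0.19 with 1 count in any library (0.1935, 10 genes). Both scalings moved the median of all genes to 0.11 and the share of calls that were higher to 63.6% and 62.7%, from 51.2%. Ikzf1, not called in any, changed sign to 0.0136 and 0.0112 with them, and Notch1 ran from -0.0661 to 0.2403 with 1 library left out. With FPKM, 44 of 45 gene pairs kept their order of levels in each fraction. Il7r and Rag1, at most 12 and 4 counts in any library, entered the fit only with 1 count in any library and were not called there (adjusted p 0.169 and 0.234).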
